A study of Mus musculus with 4 samples.

Results

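Lipid droplets store triglyceride and cholesteryl ester under a monolayer of phospholipid, and the proteins on that surface decide which lipases reach the core. The 10 mouse genes described here encode proteins of the droplet surface and proteins that control lipases or the formation of droplets. They are the perilipins Plin2, Plin3, Plin4 and Plin5, the Cide proteins Cideb and Cidec, the fat storage-inducing proteins Fitm1 and Fitm2, the lipase inhibitor G0s2 and the droplet enzyme Hsd17b13. They were chosen by name from the platform's gene symbols, out of 19938 genes, and each had 1 probe set of its own, shared with no other gene.

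Liver RNA was measured on 4 Affymetrix Mouse Gene 1.0 ST arrays. A KO-labelled liver came from SIRT6Co/Co ;Alb-Cre mice, which carry a conditional Sirt6 allele and Cre recombinase under the albumin promoter. That promoter is active mainly in hepatocytes, and whether other liver cells kept the gene was not measured. A WT-labelled liver came from mice described as WT SIRT6. Each genotype was sampled at 2 and at 8 months of age, and each array held combined RNA of 3 pairs of mice, so that every group is 1 array. Whether the WT mice carried Cre or an unrecombined conditional allele is not stated by the labels, and neither are strain, sex and feeding state.

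In hepatocytes, Pnpla2 (ATGL) removes the first fatty acid from a stored triglyceride. Its coactivator Abhd5 (CGI-58) is held by perilipins, and G0s2 binds the enzyme and inhibits it. Cide proteins promote the transfer of lipid between touching droplets, and Fitm proteins act in the endoplasmic reticulum where new droplets form.

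The deposited values are on a log2 scale, so a difference of 1 is a factor of 2. For Sirt6, the array gave 4.54 and 4.46 in the KO-labelled arrays at 2 and 8 months, against 4.55 and 4.50 in the WT-labelled arrays. The exons under its probe set are not known here, so the targeted gene does not check the labels, and every direction below rests on them. Between arrays of different label, Pearson's r over all genes was 0.990 to 0.992, and between the ages of a label it was 0.996. Of 10 hepatocyte markers, 9 had a probe set of their own and 0 changed with genotype, with Alb between 12.5 and 12.6 on all arrays. Over both ages, KO minus WT of these markers ran from -0.24 for Cps1 to 0.18 for Apoc3. The immediate early gene Fos differed by 3.62 at 2 months and 3.78 at 8 months, KO minus WT, and the glucocorticoid-induced Fkbp5 by -2.17 and -3.26. These large differences follow the same labels as every genotype difference below, and their part in the results was not tested.

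Genotype was tested with an additive limma model of genotype and age across 11963 genes above a floor on mean level, with Benjamini-Hochberg adjustment and a threshold of 0.05. All 10 droplet genes passed the floor. With 1 array a group, its p-values weigh an effect against the departure from additivity, pooled across genes. They measure neither the spread between pools nor that between mice. Genes are said to have risen or fallen only when they passed this test, and the direction is that of the KO-labelled arrays.

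Of the 10 genes, 4 fell and 2 rose, and 4 did not pass. G0s2, Plin5, Plin4 and Cidec fell, and Fitm1 and Hsd17b13 rose. Over all genes tested, 4.26% fell, 6.81% rose and 11.1% were called in either direction. At 2 months the 10 genes had a median of -0.24 and at 8 months of -0.05, against 0.01 and 0.00 over all genes tested. Another scaling shifts the split of calls over all genes. Of the 1325 genes called, 61.5% rose. After a second quantile normalization 50.9% of 1761 rose, and with arrays centred on their medians 69.7% of 1293 rose.

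Promoters of the 4 genes that fell are shown because these share a direction of the genotype difference. RefSeq's GRCm38.p6 table held a start for all 10 genes, with 12 starts in all, and each sequence is the 250 bases before a start, on the minus strand. Capitals mark the AP-1 motif TGANTCA, searched on both strands, and the CCAAT box, which reads ATTGG on the other strand. Plin5 and Cidec each have another listed start, whose window holds neither motif and is not shown. The window shown for each is the one with the AP-1 motif.
G0s2, chr1:193273189-193273438: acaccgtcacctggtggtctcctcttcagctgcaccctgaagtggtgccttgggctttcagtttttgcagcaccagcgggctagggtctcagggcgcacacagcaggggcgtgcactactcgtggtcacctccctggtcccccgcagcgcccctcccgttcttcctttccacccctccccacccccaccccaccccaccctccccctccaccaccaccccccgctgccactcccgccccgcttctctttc
Plin5, first listed start, chr17:56117549-56117798: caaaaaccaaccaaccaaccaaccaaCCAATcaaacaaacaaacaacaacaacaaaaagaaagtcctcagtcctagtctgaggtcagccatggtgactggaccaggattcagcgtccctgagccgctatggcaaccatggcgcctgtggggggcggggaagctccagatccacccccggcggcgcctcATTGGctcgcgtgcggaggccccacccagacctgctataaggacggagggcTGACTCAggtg
Plin4, chr17:56109783-56110032: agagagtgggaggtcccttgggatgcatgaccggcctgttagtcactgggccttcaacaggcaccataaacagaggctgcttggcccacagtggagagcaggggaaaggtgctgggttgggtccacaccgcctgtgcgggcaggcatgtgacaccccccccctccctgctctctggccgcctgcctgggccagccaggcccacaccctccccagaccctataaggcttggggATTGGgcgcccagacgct
Cidec, second listed start, chr6:113434765-113435014: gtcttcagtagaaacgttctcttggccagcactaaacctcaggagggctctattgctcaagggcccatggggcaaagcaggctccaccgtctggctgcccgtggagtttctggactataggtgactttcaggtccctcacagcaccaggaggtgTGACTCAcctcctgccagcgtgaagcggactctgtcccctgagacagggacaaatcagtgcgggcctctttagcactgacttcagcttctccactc

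The AP-1 motif was found for Plin5, 11 to 5 bases upstream of its first start, and for Cidec, 96 to 90 bases upstream of its second start. Of all 32851 windows of this length in the table, 6.75% hold it. The CCAAT box was found in all 4 perilipin genes here, both those that fell and those that did not pass, and in 33.9% of all windows. A gene counts here if any of its windows holds the motif, while the shares are of single windows. For Plin5 only the window of the first start holds the box. The direct repeat bound by PPAR with RXR, AGGTCANAGGTCA, was in none of the 12 windows and in 0.0335% of all, and its relaxed form AGGNCANAGGNCA was likewise in none of them and in 0.338% of all. The E-box CACGTG and the C/EBP motif TTGCGCAA were also in none of the 12, against 6.02% and 0.164% of all, and TATAAA was found for Cideb and in 12.4% of all. The G0s2 window held none of the motifs searched, and 67.2% of its bases were G or C, against a median of 52.4% over all windows. Most windows of the other genes here were also above that median, up to 70.0% for the second Plin5 start. Those of Cideb, at 47.2%, and Hsd17b13, at 44.8%, were below it. A match or its absence in such a short window is a description of letters only.

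The inhibitor of triglyceride hydrolysis had the largest difference of the group. G0s2 (probe set 10361246, gene ID 14373, chromosome 1) read 7.03 and 7.03 in the KO-labelled arrays at 2 and 8 months, against 8.50 and 8.13 in the WT-labelled arrays. Both KO-labelled values lay below both WT-labelled ones, with 1.10 log2 units between the nearest. The difference was -1.47 at 2 months and -1.10 at 8 months. Over both ages it was -1.29 (SE 0.10, 2 arrays per genotype), a level 2.44-fold higher in WT, with a limma adjusted p of 2.6e-06. It ranked 26 from the lowest of 11963 genes.

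Plin5 and Plin4 lie side by side on chromosome 17 and both fell. Perilipin 5 tethers droplets to mitochondria in oxidative tissues and holds Pnpla2 and Abhd5. Plin5 (probe set 10451943, gene ID 66968) read 5.42 and 5.66 in the KO-labelled arrays at 2 and 8 months, against 5.97 and 6.61 in the WT-labelled arrays. The difference was -0.55 at 2 months and -0.95 at 8 months, and -0.75 (SE 0.12) over both, with a limma adjusted p of 0.0011.

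Perilipin 4 coats nascent droplets and is best known from adipose tissue, heart and muscle. Plin4 (probe set 10451932, gene ID 57435) read 4.05 and 4.39 in the KO-labelled arrays at 2 and 8 months, against 4.74 and 5.08 in the WT-labelled arrays. The difference was -0.69 at each age, and the limma adjusted p was 0.0034 for a difference over both of -0.69 (SE 0.13). For Plin4 and Plin5 alike, the lowest value was that of the KO-labelled array at 2 months and the highest that of the WT-labelled array at 8 months.

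The other perilipins gave flat readings. Plin2 is the main coat protein of hepatocyte droplets, and its protein is degraded when droplets are few. It (probe set 10514221, gene ID 11520) read 9.88 and 9.87 in the KO-labelled arrays at 2 and 8 months, against 9.89 and 9.83 in the WT-labelled arrays. The KO-labelled values lay between the WT-labelled ones. The difference over both ages was 0.02, with a 95% interval of -0.15 to 0.18 and a limma adjusted p of 0.93. Its sign turned under 2 of the alternative normalizations.

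Plin3 is made in most tissues and moves from the cytosol onto small new droplets. It (probe set 10452030, gene ID 66905, chromosome 17) read 6.74 and 6.77 in the KO-labelled arrays, against 6.79 and 6.81 in the WT-labelled arrays. The difference of -0.04 had a 95% interval of -0.24 to 0.16 and a limma adjusted p of 0.83. A difference of the size seen for Plin5 or Plin4 lies outside the intervals of Plin2 and Plin3. These intervals, like the p-values, do not measure spread between pools or mice.

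**Figure D1:**
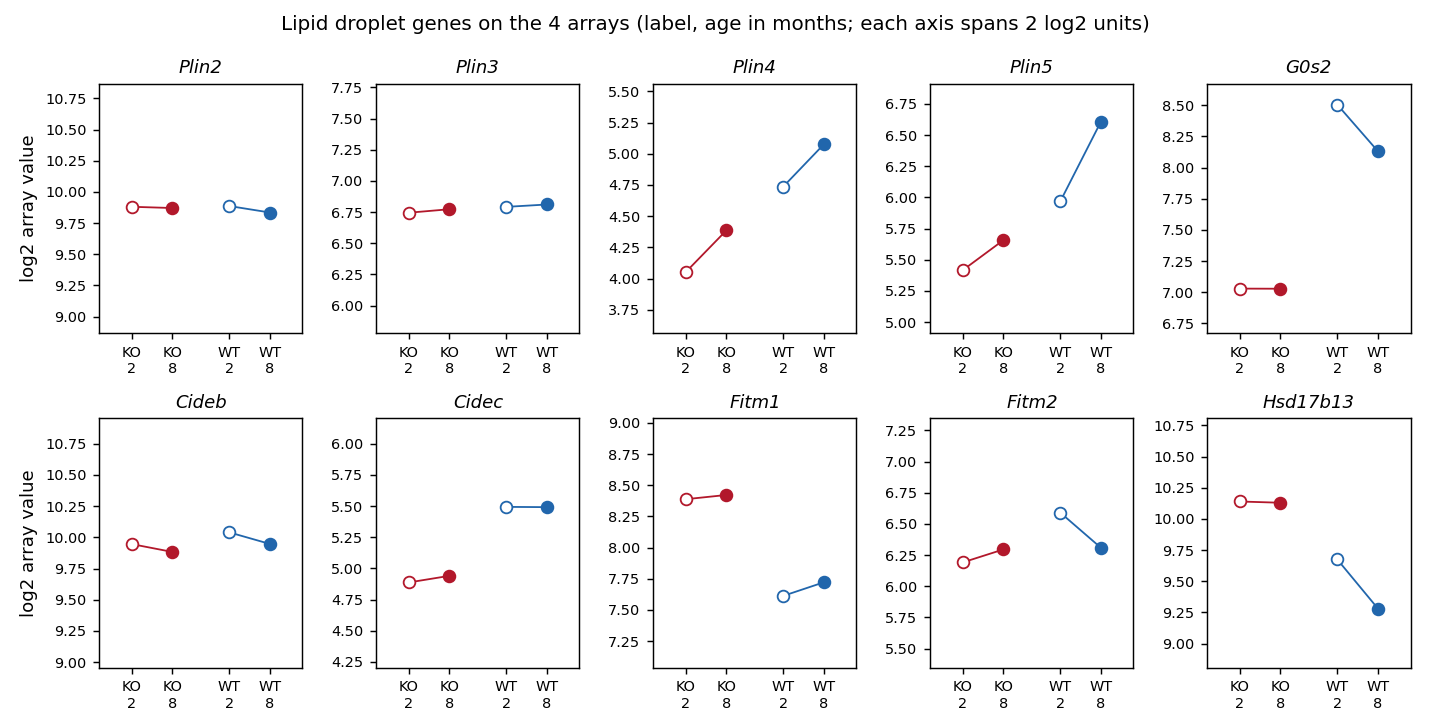
Deposited log2 values of the 10 genes on each array, with KO-labelled arrays in red on the left and WT-labelled arrays in blue on the right of each panel, open circles for 2 months and filled circles for 8 months. Each panel spans 2 log2 units around the gene's mean, and each point is 1 array of pooled RNA. G0s2, Plin4, Plin5 and Cidec sit lower and Fitm1 and Hsd17b13 higher in the KO-labelled arrays.

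The Cide genes differed from each other. Cidec promotes the growth of large droplets and is low in lean liver but abundant in fatty liver. It (probe set 10546929, gene ID 14311, chromosome 6) read 4.89 and 4.94 in the KO-labelled arrays at 2 and 8 months, against 5.49 and 5.49 in the WT-labelled arrays. The values of the genotypes lay 0.55 apart at their nearest. The difference was -0.61 at 2 months and -0.55 at 8 months, and -0.58 (SE 0.12) over both, with a limma adjusted p of 0.0065.

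Cideb is the Cide protein of healthy hepatocytes and takes part in loading lipid onto very low density lipoprotein. It (probe set 10420165, gene ID 12684, chromosome 14) read 9.95 and 9.88 in the KO-labelled arrays, against 10.04 and 9.95 in the WT-labelled arrays. The nearest values of the genotypes were 0.0012 apart. The difference of -0.08 had a 95% interval of -0.24 to 0.08 and a limma adjusted p of 0.58.

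Fitm1 and Fitm2 also had different readings. Fitm1 is known in mice mainly from skeletal muscle and heart. It (probe set 10415279, gene ID 68680, chromosome 14) read 8.39 and 8.42 in the KO-labelled arrays at 2 and 8 months, against 7.61 and 7.72 in the WT-labelled arrays. The difference was 0.78 at 2 months and 0.70 at 8 months, and 0.74 (SE 0.08) over both, a level 1.67-fold higher in KO-labelled arrays, with a limma adjusted p of 7e-05. Of 8 skeletal and cardiac muscle markers, 4 were below the floor and 0 of the other 4 changed. Acta1 was at -0.04 and 0.30 and Mb at -0.46 and -0.09, KO minus WT at 2 and 8 months.

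Fitm2, the widely expressed member, (probe set 10489368, gene ID 228859, chromosome 2) read 6.19 and 6.29 in the KO-labelled arrays at 2 and 8 months, against 6.59 and 6.31 in the WT-labelled arrays. The WT-labelled array at 2 months was the high one, and the other 3 lay within 0.12 of each other. The difference over both ages was -0.21, with a 95% interval of -0.45 to 0.04 and a limma adjusted p of 0.28.

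Hsd17b13 is a droplet enzyme of hepatocytes whose variants are tied to fatty liver disease in humans. It (probe set 10531910, gene ID 243168, chromosome 5) read 10.14 and 10.13 in the KO-labelled arrays at 2 and 8 months, against 9.68 and 9.28 in the WT-labelled arrays. The difference was 0.46 at 2 months and 0.85 at 8 months, and 0.65 (SE 0.09) over both, with a limma adjusted p of 0.00052. Its neighbour on the chromosome, the related droplet protein Hsd17b11, fell. Hsd17b11 read 8.72 and 8.60 in the KO-labelled arrays, against 9.21 and 9.20 in the WT-labelled arrays, and the difference of -0.54 (SE 0.08) had a limma adjusted p of 0.00064.

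**Figure D2:**
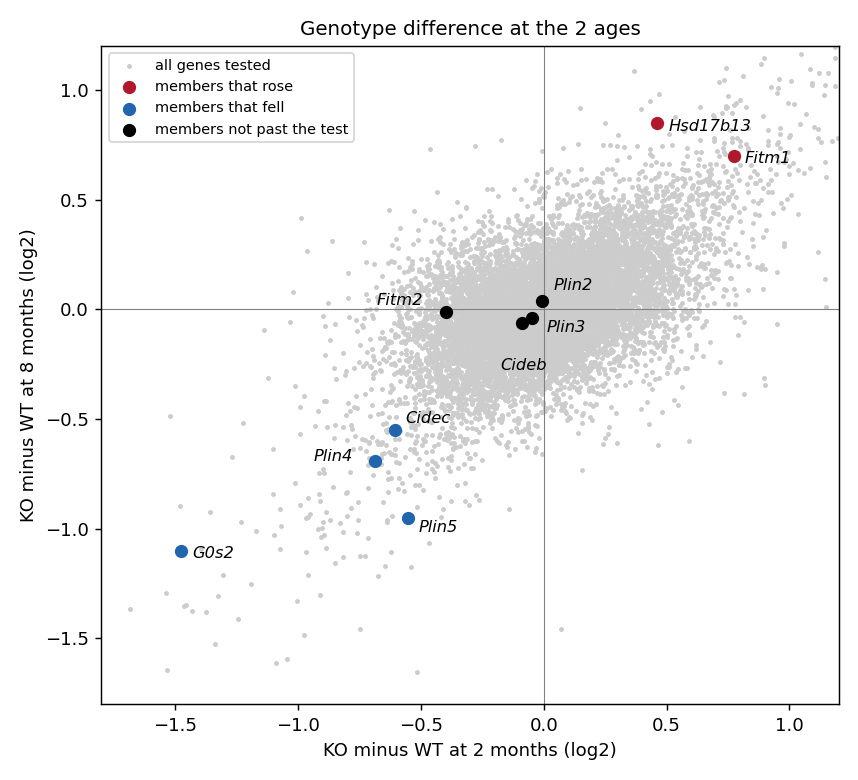
KO minus WT at 2 months on the horizontal axis and at 8 months on the vertical axis, both in log2 units, for all 11963 genes tested in grey and the 10 droplet genes in colour; genes outside the axes are not drawn. The axes share no array. The genes that fell lie in the lower left, from Cidec at -0.61 and -0.55 to G0s2 at -1.47 and -1.10, and Fitm1 and Hsd17b13 lie in the upper right.

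Counting single ages, 3 genes were at least 1.5-fold lower in the KO-labelled array at 2 months, namely G0s2, Plin4 and Cidec, and 1 was higher, Fitm1. The lower count at 2 months was 4 after quantile normalization again or cyclic loess, where Plin5 joined at -0.64 and -0.62, and 2 with arrays centred on their medians, where Cidec was at -0.53. At 8 months G0s2, Plin5 and Plin4 were at least 1.5-fold lower, and Fitm1 and Hsd17b13 were higher. Over all genes tested, 2.39% were that much lower and 3.98% higher at 2 months, and 1.93% lower and 2.41% higher at 8 months. The values of the genotypes did not overlap for 9 of the 10 genes, Plin2 being the exception, with 7 lower and 2 higher in the KO-labelled arrays. The nearest values were only 0.0012 apart for Cideb, 0.013 for Fitm2 and 0.019 for Plin3, which did not pass the test. For the genes that passed they were 0.31 or more apart. Of all genes tested, 25.7% lay wholly lower, 29.1% wholly higher and 54.8% did not overlap in either direction.

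The difference between genotypes was not of one size at both ages for every gene. From 2 to 8 months, KO minus WT moved by -0.40 for Plin5, 0.37 for G0s2, 0.38 for Hsd17b13 and 0.39 for Fitm2, and by less than 0.08 for each of the other 6 genes. With 1 array per group this could not be tested.

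No droplet gene passed the test for age. The limma adjusted p was 1 for each of the 10, and 0.00836% of all genes tested were called. An unadjusted limma p under 0.05 was found for 3 of the 10, and for 431 of all 11963 genes tested. The 3 were Plin5, with 8 minus 2 months at 0.44 (SE 0.12), Plin4 at 0.34 (SE 0.13) and Hsd17b13 at -0.20 (SE 0.09). Plin4 was higher at 8 months by 0.34 in KO-labelled and 0.34 in WT-labelled arrays. Plin5 was higher by 0.24 in KO-labelled and 0.64 in WT-labelled arrays, and the second of these was the single age difference of at least 1.5-fold among the 10 genes, a rise of that size being found in 0.209% of all genes tested. G0s2 and Hsd17b13 gave nearly the same value at both ages in the KO-labelled arrays and differed by -0.37 and -0.39 in the WT-labelled arrays. The age and genotype differences are made from the same 4 arrays.

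**Figure D3:**
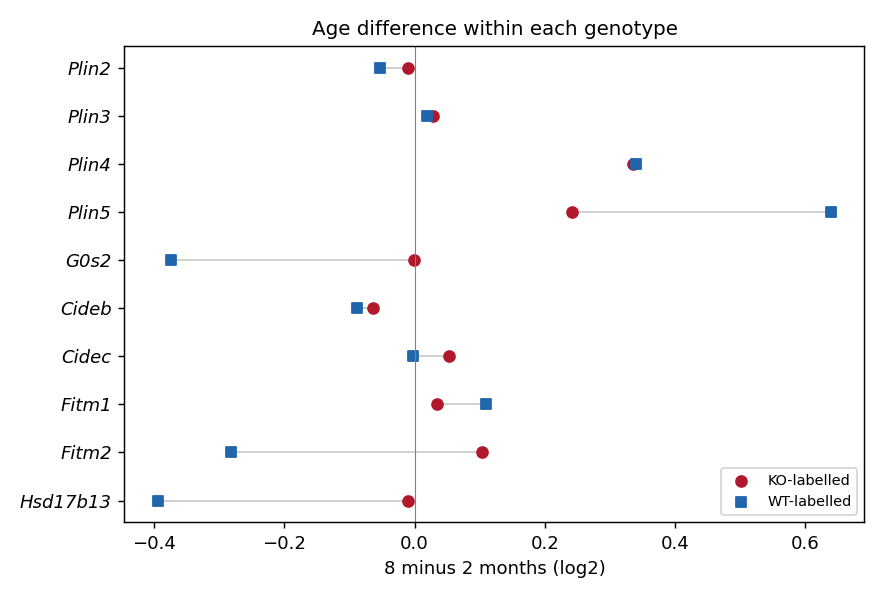
Level at 8 months minus level at 2 months, in log2 units, for each of the 10 genes, with red circles for KO-labelled and blue squares for WT-labelled arrays. Plin4 has nearly the same value in both, while Plin5, G0s2, Fitm2 and Hsd17b13 lie apart.

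Other droplet proteins mostly did not pass. Of 18 listed, 17 had a probe set of their own and 16 passed the floor. Of these, 2 fell, Hsd17b11 and Cav1, and 1 rose, Vps13c, a lipid transfer protein. Among all genes tested, 4.26% fell and 6.81% rose. The list's median was 0.14 (2 months) and 0.01 (8 months). Caveolin Cav1 read 4.66 and 4.10 in the KO-labelled arrays at 2 and 8 months, against 6.18 and 4.58 in the WT-labelled arrays, so that the young WT-labelled array stood apart. The limma adjusted p of Cav1 was 0.0044, and 0.14 without age in the model. The adipocyte perilipin Plin1 read 3.66 and 4.03 in the KO-labelled arrays, against 4.21 and 4.11 in the WT-labelled arrays, with a limma adjusted p of 0.20, and Cidea, the Cide protein of brown fat, stayed below the floor at 3.01 to 3.17 on the 4 arrays.

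Among lipases, the enzyme that G0s2 inhibits fell. Pnpla2 read 6.36 and 6.14 in the KO-labelled arrays at 2 and 8 months, against 6.81 and 6.78 in the WT-labelled arrays. Its difference was -0.55 (SE 0.10) with a limma adjusted p of 0.0029. The coactivator Abhd5 was at -0.09 at 2 months and 0.09 at 8 months, with a 95% interval of -0.20 to 0.20 over both, and hormone-sensitive lipase Lipe was at -0.13 and -0.01. Of 15 lipases and cofactors tested, 2 fell and 3 rose, against 4.26% and 6.81% of all genes tested. The carboxylesterase Ces3b fell by 0.86 (limma adjusted p 1.4e-05), and Ces1g rose by 0.59 (limma adjusted p 0.00029). The lipid hydrolase Abhd6 and the arylacetamide deacetylase Aadac rose by 0.34 and 0.32. Carboxylesterases of these clusters are close in sequence, and probes may not separate them fully. The lipases had medians of 0.03 and -0.01 at 2 and 8 months.

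Regulators of droplet genes moved in both directions. Ppara, the nuclear receptor that drives Plin2, Plin5 and fatty acid oxidation genes in liver, read 8.33 and 8.17 in the KO-labelled arrays at 2 and 8 months, against 8.75 and 8.74 in the WT-labelled arrays, and fell (limma adjusted p 0.0015). Pparg, which drives Cidec and lipid storage, read 6.42 and 6.40 in the KO-labelled arrays, against 5.89 and 5.79 in the WT-labelled arrays, and rose (limma adjusted p 0.0028). Of 14 regulators tested, 4 fell and 2 rose, against 4.26% and 6.81% of all genes tested. The regulators had medians of -0.01 and -0.10 at 2 and 8 months. The xenobiotic receptor Nr1i3 fell by 0.95, the insulin-restrained factor Foxo1 by 0.41 and the hepatic factor Creb3l3 by 0.32. Srebf1, the transcription factor of lipogenesis, rose by 0.45. The calls of Foxo1, Creb3l3, Aadac, Abhd6 and Vps13c did not hold under every alternative. The largest of their adjusted p-values were 0.074, 0.15, 0.12, 0.092 and 0.088.

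**Figure D4:**
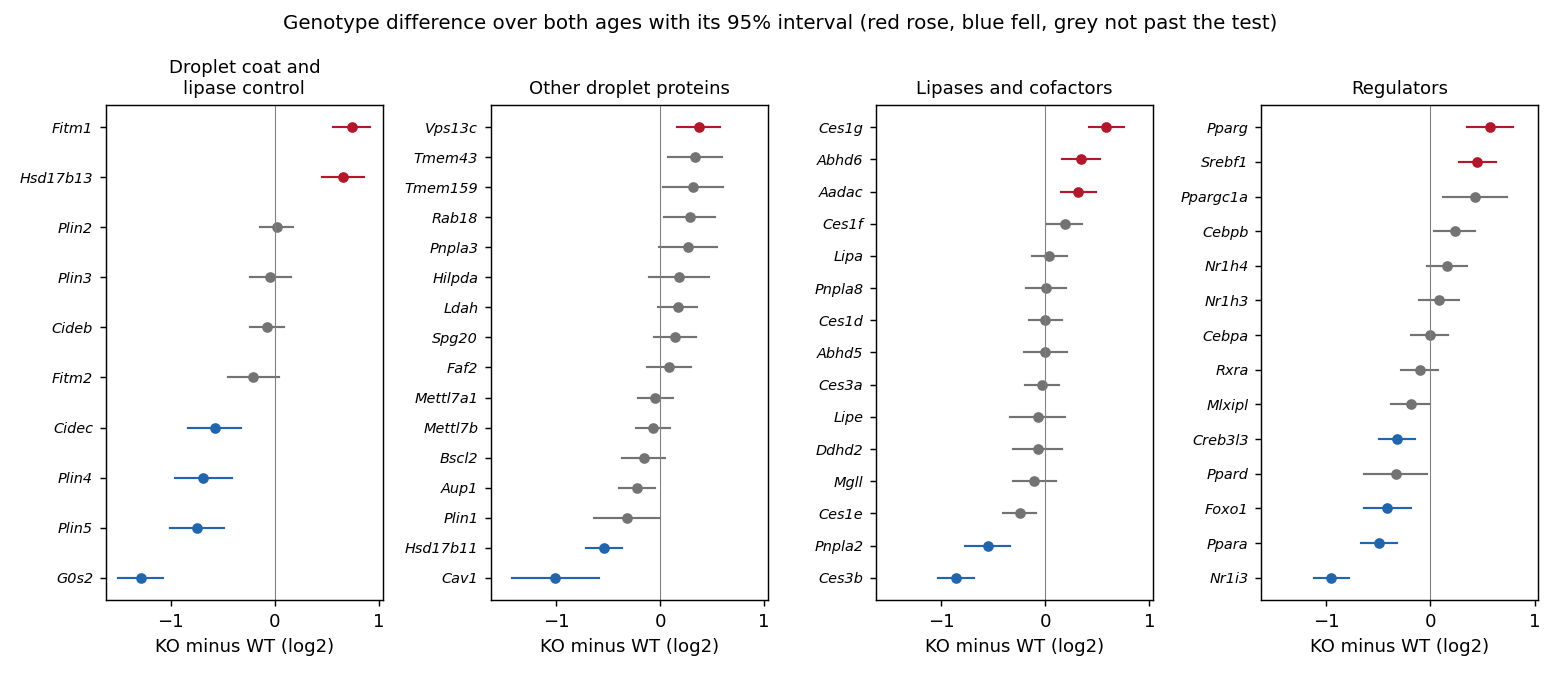
KO minus WT over both ages in log2 units, with 95% intervals from the limma fit, for the 10 droplet genes, other droplet proteins, lipases with their cofactors, and regulators. Red marks genes that rose, blue genes that fell and grey genes that did not pass, from Fitm1 at 0.74 and Hsd17b13 at 0.65 to G0s2 at -1.29 in the first panel.

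Genes beside the droplet genes were compared to see whether neighbours had like values. The nearest measured protein-coding gene on each side, a choice made after the values were seen, gave 18 genes that are not among the 10, of which 15 were tested, 1 rose and 3 fell. Besides Hsd17b11, these were the plasma glycoprotein gene Lrg1 next to Plin5, at -0.30 (SE 0.08), and the laminin chain Lamb3 and the glucocorticoid-activating enzyme Hsd11b1 on either side of G0s2, at -0.58 (SE 0.14) and 0.28 (SE 0.08). Their limma adjusted p-values were 0.029, 0.018 and 0.035. The neighbours of Plin2, Plin3, Cideb, Cidec, Fitm1 and Fitm2 that were tested did not pass. Shares over all genes tested were 6.81% for those that rose and 4.26% for those that fell.

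Droplets are also found in adipocytes, stellate cells and macrophages, and in bulk RNA fewer cells of a type and less RNA per cell cannot be told apart. Of 7 adipocyte markers, 6 had a probe set, 4 of these were below the floor and 0 of the other 2 changed. Adipoq read 2.26 and 2.36 in the KO-labelled arrays, against 2.34 and 2.34 in the WT-labelled arrays. The summed linear level of the 6 was 51.2 and 55.9 in the KO-labelled arrays, against 57.0 and 56.5 in the WT-labelled arrays. Of 12 stellate cell markers, 2 fell and 1 rose, against 4.26% and 6.81% of all genes tested. The contractile gene Acta2 was at -1.86 and -2.01 and Ecm1 at -0.56 and -0.57. Reln rose by 0.29, and the retinol enzyme Lrat was at 0.25 and -0.13. The summed level of the list was 1462 and 1398 in the KO-labelled arrays, against 1495 and 1460 in the WT-labelled arrays. Bright genes such as Dcn, at 9.34 to 9.46 on all arrays, weigh most in this sum. Of 9 Kupffer cell markers tested, 3 rose and 1 fell, against 6.81% and 4.26% of all genes tested. Cd5l led at 0.84 and 0.60, and Lyz2 was at -0.62 and -0.42. The summed level of all 10 listed, with Marco below the floor, was 559 and 489 in the KO-labelled arrays, against 524 and 411 in the WT-labelled arrays. The part of these cells in the droplet gene results was not tested.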

How the data were processed

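Per the submitters' processing notes, the authors ran RMA in Affymetrix Expression Console (version 1.0v), and the deposited table holds log2 values of 35556 probe sets on 4 arrays. RMA corrects background, quantile normalizes and summarises probes. It shrinks the differences of dim genes, and a shift in total RNA is lost. The genome build, the annotation and the set of arrays normalized together are not given in the sources used here. An array has no read depth, and the number of arrays limits the precision.

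Probe sets with 1 symbol in the platform table, 21789 of them, were averaged per gene, which gave 19938 genes. Another 1621 had several symbols and 12146 none, and they were not used. Symbols were checked through gene IDs against RefSeq (GRCm38.p6), which changed 0. Genes with a mean over the 4 arrays above the 40th percentile, 3.34, were tested in R 4.3.3 with limma 3.58.1 (functions lmFit and eBayes, trended prior variance). The model had terms for genotype and age, 1 residual degree of freedom and a prior of 11.3. In 20 simulated sets of 11963 genes with 200 changed, the genotype test recovered a median of 92% of 1.5-fold and 100% of 2-fold changes. A median of 6.47% of its calls were false. The simulated noise was drawn from the fit's own variance, so these rates do not cover spread between pools or mice. Where a difference between single arrays is given, there is no test.

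The 10 genes, the gene lists and the motifs were chosen with earlier results of these data known. Named genes were all 10, Sirt6, and every called gene of the droplet protein, lipase and regulator lists with a few fixed others. Extremes of the hepatocyte, muscle, stellate and Kupffer cell marker lists were also named. Alb, Adipoq, Lrat, Marco, Fos, Fkbp5, Ecm1, Dcn and chromosomal neighbours were added. Alternatives were the brightest probe set per gene, other filters, 3 normalizations, other variance moderation and no covariate. Acsl3, Lipc, Nr1h2, Serpina1a and Cfd had no probe set of their own and were not analysed here.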

Additional observations from a re-analysis of the deposited data

Results flagged for a closer look

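For 3 of the 10 genes the single-age or single-genotype differences had opposite signs, and the difference between them was not tested, since each group is 1 array. Plin2 was -0.01 at 2 months and 0.04 at 8 months, KO minus WT, which are 0.042 apart. Cidec, 8 minus 2 months, was 0.05 in the KO-labelled arrays and 0.00 in the WT-labelled arrays, which are 0.055 apart. Fitm2, 8 minus 2 months, was 0.10 in the KO-labelled and -0.28 in the WT-labelled arrays, which are 0.39 apart, and its WT-labelled value at 2 months was the high one.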

How the results depend on the processing

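The 6 calls among the 10 droplet genes held under all 9 alternatives, except that Plin4 was below the stricter filter and was tested under 8. The highest adjusted p over the alternatives was 0.026 for Cidec, 0.024 for Plin5, 0.019 for Plin4, 0.018 for Hsd17b13, 0.0051 for Fitm1 and 0.0007 for G0s2. The sign of Plin2 turned, to -0.024 after quantile normalization again and to -0.00098 after cyclic loess. For age, no droplet gene passed under any alternative, and the lowest adjusted p was 0.29, for Plin5. Without the filter, and without the intensity trend, 0 other droplet proteins rose, 1 lipase rose and 2 regulators fell, and 2 regulators fell with arrays centred on their medians. Other settings gained calls. Lipases that fell numbered 3, with Ces1e, under the brightest probe set, the stricter filter, quantile normalization again, cyclic loess, robust moderation and no covariate. Regulators that rose numbered 3, with Ppargc1a, under each of the 3 normalizations. Other droplet proteins that fell numbered 3, with Aup1, after quantile normalization again and cyclic loess. The calls over all genes for genotype numbered 752 without the filter and 846 without the trend. Leaving out an array was not run, since the additive model then has no residual degree of freedom. No replicate block was fitted because the labels give no replicate number; age is a term of the model, which compares genotypes within age, and the alternative with no covariate leaves it out. The values rest on single pools, and signal over background was not given, so dim genes such as Plin4 and Cidec may have compressed differences.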
